A study of Mus musculus with 3 samples.

Results

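The translation initiation factor genes were taken as the protein-coding autosomal mouse genes whose symbol is Eif followed directly by a digit, with 1 further gene left out by that rule. The annotation held 51 such genes. Of these, 46 had at least 1 transcript event listed under their own identifier and inside the gene, out of 11410 protein-coding genes with a value. Their events inside the gene numbered 296, 316 and 307 in replicates 1, 2 and 3, out of 71716, 74243 and 74236 events in all. The 3 libraries were RNA sequencing of normal liver from healthy wild-type C57BL/6 mice labelled male, and no treatment is given. All 3 form 1 group, so the values are a description with no test between groups. Nothing in the labels says whether the libraries came from separate mice, so the spread between them may be technical. Each value is an FPKM, a level scaled to transcript length and library size, and the number of reads behind it is unknown.

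Translation initiation begins when eIF2 carries the initiator tRNA to the small ribosomal subunit, where eIF1, eIF1A, eIF3 and eIF5 also sit. eIF4F, made of the cap-binding protein eIF4E, the scaffold eIF4G and the helicase eIF4A, brings the loaded subunit to the capped end of a messenger RNA, and the subunit then scans to the start codon. eIF5 triggers GTP hydrolysis by eIF2, eIF5B joins the large subunit, and eIF2B reloads eIF2 with GTP. The liver is known for a high output of secreted proteins, and initiation is a main point at which nutrients and stress set that output, through eIF2 phosphorylation and through proteins that hold eIF4E.

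The libraries carried the defining genes of liver but went against their labelled sex. All 5 hepatocyte markers were listed, with summed levels of 31452, 35460 and 34302 FPKM in replicates 1, 2 and 3. Alb alone gave 25367, 30592 and 27018 FPKM of these sums. Summed markers of other cell types were far lower. The 3 listed stellate cell markers summed to 110, 136 and 131 FPKM, 4 Kupffer cell markers to 62.9, 104 and 95.6 FPKM, and 2 neutrophil markers to 2.11, 1.74 and 2.87 FPKM. Single markers could be alike: the stellate marker Dcn had 61.4, 75.5 and 76.9 FPKM and the hepatocyte marker Hnf4a 58.7, 94.8 and 89.7 FPKM. Xist, the RNA that coats the inactive X chromosome, had events at 65.7, 53.9 and 46.4 FPKM, and no event was listed in the Y-linked genes Ddx3y, Uty, Kdm5d or Eif2s3y. Eif2s3y encodes the Y-linked copy of the eIF2 gamma subunit, whose X-linked copy Eif2s3x was listed at 22.3, 33.2 and 34.8 FPKM. The labelled male sex therefore does not match these genes in any of the 3 libraries.

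All 46 genes had a value in every library and averaged 1 FPKM or more, and 38 of them (82.6%) averaged 5 FPKM or more. Among all 11410 protein-coding genes with a value, 76.6% reached 1 FPKM and 43.1% reached 5 FPKM. The median of the gene means was 16.6 FPKM for the initiation factor genes and 3.75 FPKM for all protein-coding genes. On the log2(FPKM + 1) scale the median of the gene means was 4.14 for the initiation factor genes and 2.23 for all protein-coding genes. In whole liver, fewer cells that use a gene and less of its RNA per cell cannot be told apart. Of the 46 genes, 28 lay at or above the 0.75 quantile of all genes, 10.7 FPKM, and 11 lay at or above the 0.9 quantile, 32.3 FPKM. The gene means spanned 1.97 FPKM for Eif2ak3 to 166 FPKM for Eif5a, and every role group but eIF2B and the eIF2 kinases had a member above 12 FPKM.

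**Figure D1:**
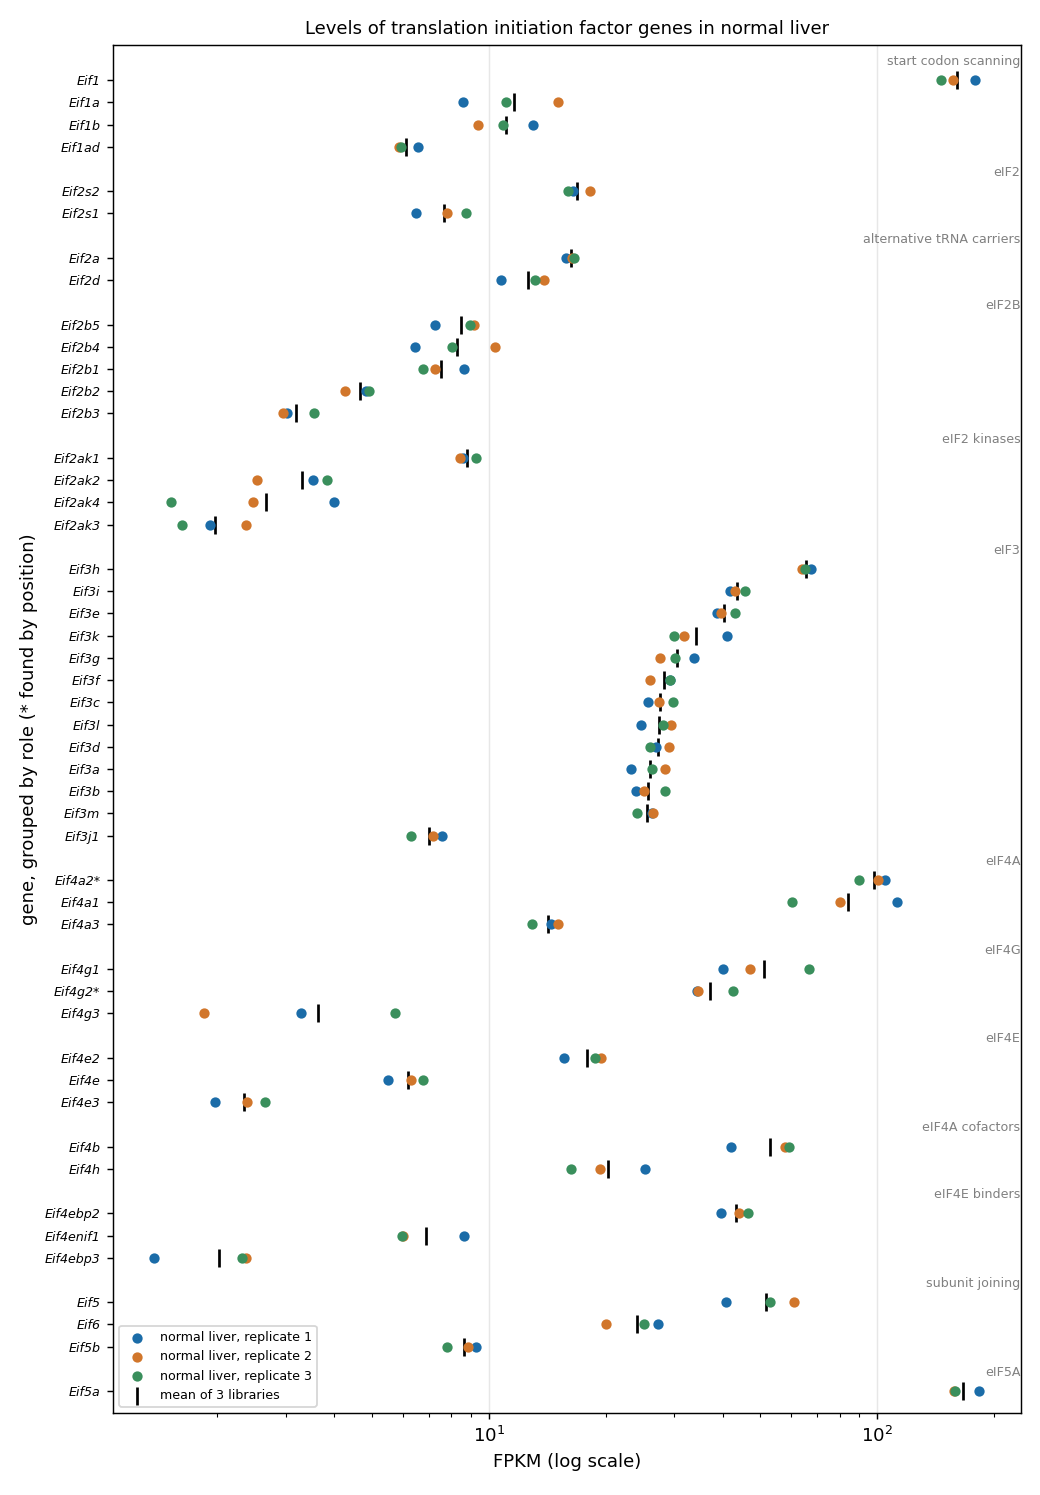
FPKM of each initiation factor gene on a log axis, with 1 point for each of the 3 normal liver libraries, a bar at their mean, and genes grouped by role; an asterisk marks Eif4a2 and Eif4g2, which were found by position only. Eif5a and Eif1 lie highest, 12 of the 13 listed eIF3 subunits lie together between 25.6 and 65.6 FPKM, and Eif2ak3 has the lowest mean.

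The most abundant transcripts were those of Eif5a and Eif1. Eif5a encodes the hypusine-carrying factor now known mainly for helping the ribosome through hard stretches in elongation. It lies at chr11 on the minus strand and had 183, 157 and 158 FPKM in replicates 1, 2 and 3, a mean of 166 ± 14.6 FPKM (SD, n = 3). Its paralogue Eif5a2 was not listed. Eif1, which keeps the scanning subunit open until a start codon is met, had 178, 156 and 146 FPKM, a mean of 160 ± 16.4 FPKM (SD, n = 3). Eif5a was above Eif1 in 3 of 3 libraries, though their ranges overlapped.

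The relatives of Eif1 were far lower. Eif1b, a close paralogue, had 13.0, 9.39 and 10.9 FPKM, and Eif1 was 14.5-fold higher than Eif1b on average and higher in 3 of 3 libraries. Eif1a, an autosomal copy of the scanning factor eIF1A, had 8.60, 15.1 and 11.1 FPKM, with replicate 2 highest. Its X-linked counterpart Eif1ax had 5.11, 5.85 and 5.64 FPKM. These 2 copies are close in sequence, and how reads that match both were assigned is not given, so their separate levels are uncertain. Eif1ad, a gene with an eIF1A-like domain, averaged 6.13 ± 0.385 FPKM (SD, n = 3).

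The subunits of eIF2 were listed at unequal levels. Eif2s2, the beta subunit, had 16.5, 18.2 and 16.0 FPKM. Eif2s1, the alpha subunit that stress kinases phosphorylate, had 6.49, 7.82 and 8.76 FPKM. The beta subunit was higher in 3 of 3 libraries, by 2.21-fold on average (log2 ratio 1.15 ± 0.24, SD, n = 3). The gamma subunit gene Eif2s3x, given above, averaged 30.1 ± 6.78 FPKM (SD, n = 3) and lay above both. Factors that can bring tRNA to the ribosome without eIF2 lay at a like height. Eif2a had 15.8, 16.4 and 16.6 FPKM, with the smallest coefficient of variation of the 46 genes (SD as a percent of the mean, 2.42%). Eif2d had 10.8, 13.9 and 13.2 FPKM, below Eif2a in every library.

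The 5 subunits of eIF2B, the exchange factor that reloads eIF2, lay between 3.18 and 8.48 FPKM, a span of 2.66-fold. Eif2b5, the catalytic epsilon subunit, had the highest mean, with 7.29, 9.17 and 8.97 FPKM, but in replicate 1 Eif2b1 and in replicate 2 Eif2b4 lay above it. Eif2b3, the gamma subunit, was lowest with 3.03, 2.96 and 3.56 FPKM. No library of Eif2b3 reached any library of Eif2b5. The means of the alpha and beta subunits were 7.56 FPKM for Eif2b1 and 4.67 FPKM for Eif2b2. Eif2b4, the delta subunit, had 6.48, 10.4 and 8.06 FPKM and shifted most in the order of the 46 genes, by 9 places between libraries.

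Among the kinases that phosphorylate eIF2 alpha, Eif2ak1 was highest. Eif2ak1, also known as HRI, the heme-regulated kinase, had 8.61, 8.42 and 9.27 FPKM. It was higher in 3 of 3 libraries than Eif2ak2 (PKR, activated by double-stranded RNA, with a mean of 3.30 FPKM), by 2.70-fold on average. Eif2ak3, also known as PERK, the kinase of the endoplasmic reticulum, had 1.92, 2.37 and 1.62 FPKM, the lowest mean of the 46 genes. Eif2ak4, also known as GCN2, the amino acid sensor, had 3.997, 2.48 and 1.52 FPKM and the second largest coefficient of variation, 46.9%. Its last exons summed to 3.997, 2.48 and 1.29 FPKM and its first exons to 0.554, 0.912 and 1.52 FPKM, opposite orders of the libraries. With first exons only Eif2ak4 averaged 0.995 FPKM, below Eif2ak3 at 1.97 FPKM. The ranges of Eif2ak3 and Eif2ak4 overlapped, and that of Eif2ak1 lay above all the others.

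Most eIF3 subunits, which form the platform between the small ribosomal subunit and eIF4G, lay close together. Of the 14 annotated genes, 13 were listed, and Eif3j2, a second copy of the gene for the loosely bound j subunit, was not. Without Eif3j1 the other 12 subunits lay within 2.56-fold of each other, and their medians were 28.1, 28.8 and 29.6 FPKM in replicates 1, 2 and 3. That span does not hold with first exons only, since the listed first exons of Eif3c averaged 0.312 FPKM. Eif3h was highest, with 67.6, 64.2 and 65.1 FPKM and a coefficient of variation of 2.69%. Eif3i had 41.7, 43.1 and 45.6 FPKM, and Eif3e had 38.6, 39.5 and 43.0 FPKM. Eif3k had 41.0, 31.9 and 29.9 FPKM, with replicate 1 apart from the other libraries. The scaffold subunits Eif3a, Eif3b and Eif3c averaged 26.0, 25.8 and 27.6 FPKM, and their ranges overlapped with one another. The other subunits were close to these: Eif3g averaged 30.5 FPKM, Eif3f 28.2 FPKM, Eif3l 27.4 FPKM, Eif3d 27.3 FPKM and Eif3m 25.6 FPKM. Eif3j1 averaged 7.02 ± 0.653 FPKM (SD, n = 3), 9.37-fold below Eif3h within libraries. The median coefficient of variation over the 13 listed subunits was 7.25%.

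On average the eIF4F helicase gene Eif4a1 was listed above the scaffold gene Eif4g1, and both above the cap-binding gene Eif4e. In replicate 3 Eif4g1 lay above Eif4a1. Eif4a1 had 112, 79.98 and 60.4 FPKM, a coefficient of variation of 31.1%. Eif4a3, whose product sits in the exon junction complex, had 14.5, 15.1 and 12.9 FPKM and was 5.77-fold below Eif4a1 on average. Eif4a2, the other cytoplasmic helicase gene, was outside the rule because its events carry the identifier of a gene nested within it. Found by position, it had 105, 100 and 89.6 FPKM. It was below Eif4a1 in replicate 1 and above it in the other libraries, so no order between the 2 helicases held in all 3. The Eif4a1 values are those of its last exons, and its first exons summed to 24.8, 78.6 and 56.5 FPKM. With first exons only, Eif4a2 lies above Eif4a1 in all 3 libraries, and Eif4g1 lies above Eif4a1 in replicates 1 and 3. With last exons only, Eif4a2 lies far below Eif4a1 in all 3, since its listed last exons summed to 0.0840, 0.163 and 0.226 FPKM.

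Eif4g1, the main scaffold, had 40.0, 47.0 and 66.6 FPKM. Eif4g3, its paralogue, had 3.30, 1.85 and 5.74 FPKM, the largest coefficient of variation of the 46 genes at 54.3%. Eif4g1 was higher in 3 of 3 libraries, by 15.3-fold on average (log2 ratio 3.94 ± 0.64, SD, n = 3). Eif4g2, a shorter relative that lacks the eIF4E-binding part, was also listed under the identifier of another gene. By position it had 34.3, 34.5 and 42.5 FPKM, below Eif4g1 in every library. These values are those of its first exons, and its listed last exons summed to 0.148, 0.162 and 0.218 FPKM.

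Eif4e, the cap-binding protein itself, had 5.50, 6.31 and 6.78 FPKM. Eif4e2, also known as 4EHP, which binds the cap but not eIF4G and is known mainly as a repressor, had 15.6, 19.4 and 18.7 FPKM. It was 2.89-fold above Eif4e, in 3 of 3 libraries (log2 ratio 1.53 ± 0.08, SD, n = 3). This direction turns with last exons only, where Eif4e2 had 2.82, 3.82 and 4.51 FPKM and Eif4e kept its values. Eif4e3 had 1.97, 2.39 and 2.66 FPKM, below Eif4e in every library. Eif4e1b, known from oocytes, was not listed.

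Proteins that hold or carry eIF4E differed widely. Eif4ebp2, a translation repressor released from eIF4E when mTOR phosphorylates it, had 39.7, 44.0 and 46.6 FPKM, which was 7.02-fold above Eif4e. Eif4ebp3, a paralogue, had 1.38, 2.38 and 2.32 FPKM, with replicate 1 lowest. Eif4ebp3 lies at the end of Ankhd1 in 1 locus of the tables, and other events under its identifier belong to Ankhd1 by position, so its own level is uncertain. Eif4enif1, also known as 4E-T, which carries eIF4E and is found in P-bodies, had 8.64, 6.03 and 5.98 FPKM.

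Of the RNA-binding cofactors of eIF4A, Eif4b had 42.04, 58.0 and 59.2 FPKM, with replicate 1 lowest. Eif4h had 25.2, 19.3 and 16.3 FPKM, with replicate 1 highest. Eif4b was above Eif4h in 3 of 3 libraries, by 2.63-fold on average. In the last steps of initiation, Eif5, the GTPase activator of eIF2, had 40.9, 61.2 and 53.0 FPKM. Eif5b, the GTPase that joins the subunits, had 9.27, 8.85 and 7.80 FPKM and lay 5.92-fold below Eif5. The level of Eif5 rests on first exons and internal events: its listed last exons averaged 0.283 FPKM, and with last exons only it lies below Eif5b. Eif6, which keeps free large subunits from joining, had 27.2, 20.1 and 25.1 FPKM, between those of Eif5 and Eif5b in every library.

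The initiation factor genes varied less between libraries than the general run of genes. Their median coefficient of variation was 10.4%, against 17.4% over the 8633 protein-coding genes that averaged 1 FPKM or more and had a value in every library. Over the 7100 such genes whose means lie within the members' own range the median was 16.2%, but genes in that range have a median level of 7.47 FPKM, below the members' 16.6 FPKM, so level is not matched. No test was made of this difference. The 5 members with the largest coefficients were Eif4g3, Eif2ak4, Eif4a1, Eif1a and Eif4ebp3 (27.6% to 54.3%). The libraries held the highest value for 15, 14 and 17 members and the lowest for 20, 12 and 14 members in replicates 1, 2 and 3. Over all genes of at least 1 FPKM they held the highest for 35.4%, 32.7% and 31.9%. They held the lowest for 37.8%, 30.7% and 31.6%, so replicate 1 was most often lowest there too. The members' median deviation from their own mean was -0.02, -0.01 and 0.03 on the log2(FPKM + 1) scale, and over all genes of at least 1 FPKM it was 0.00, 0.01 and 0.01.

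**Figure D2:**
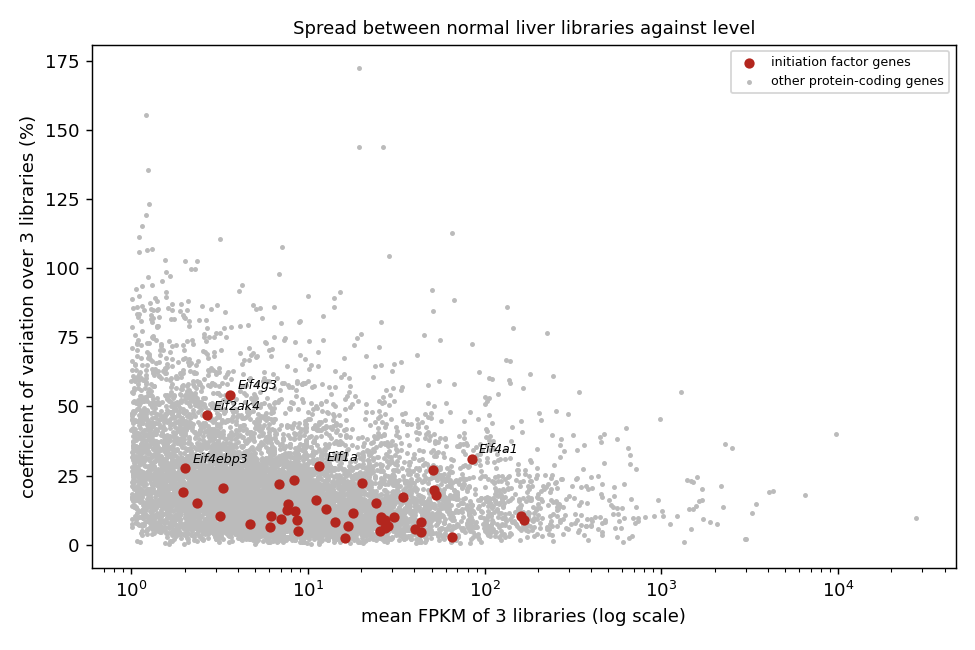
Coefficient of variation over the 3 normal liver libraries (percent) against mean FPKM on a log axis, for the initiation factor genes and for the other protein-coding genes that averaged 1 FPKM or more and had a value in every library. The 5 named members lie between 27.6% and 54.3%.

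First exons were compared next, and 24 of the 44 initiation factor genes with a listed first exon had only 1. A gene was counted as having more than 1 first exon in use when its second most used first exon carried on average at least 10% of the FPKM of its first exons. This held for 10 of the 44 genes (22.7%) and for 25.7% of the 10540 protein-coding genes with one, so the share among the members is near that of all genes. The 10 genes were Eif1, Eif2ak4, Eif2b4, Eif4a1, Eif4e, Eif4e2, Eif4enif1, Eif4g1, Eif4g3 and Eif5a. The 44 genes had 88 first exons, of which 74 match an annotated first exon at both ends and 12 at the splice site only. In 3 of the 10 genes, Eif4e, Eif4g1 and Eif5a, the count rests on replicate 1, and without that library 7 genes passed. Eif4e is also lost without replicate 2, and Eif1 is lost without replicate 2 or without replicate 3.

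**Figure D3:**
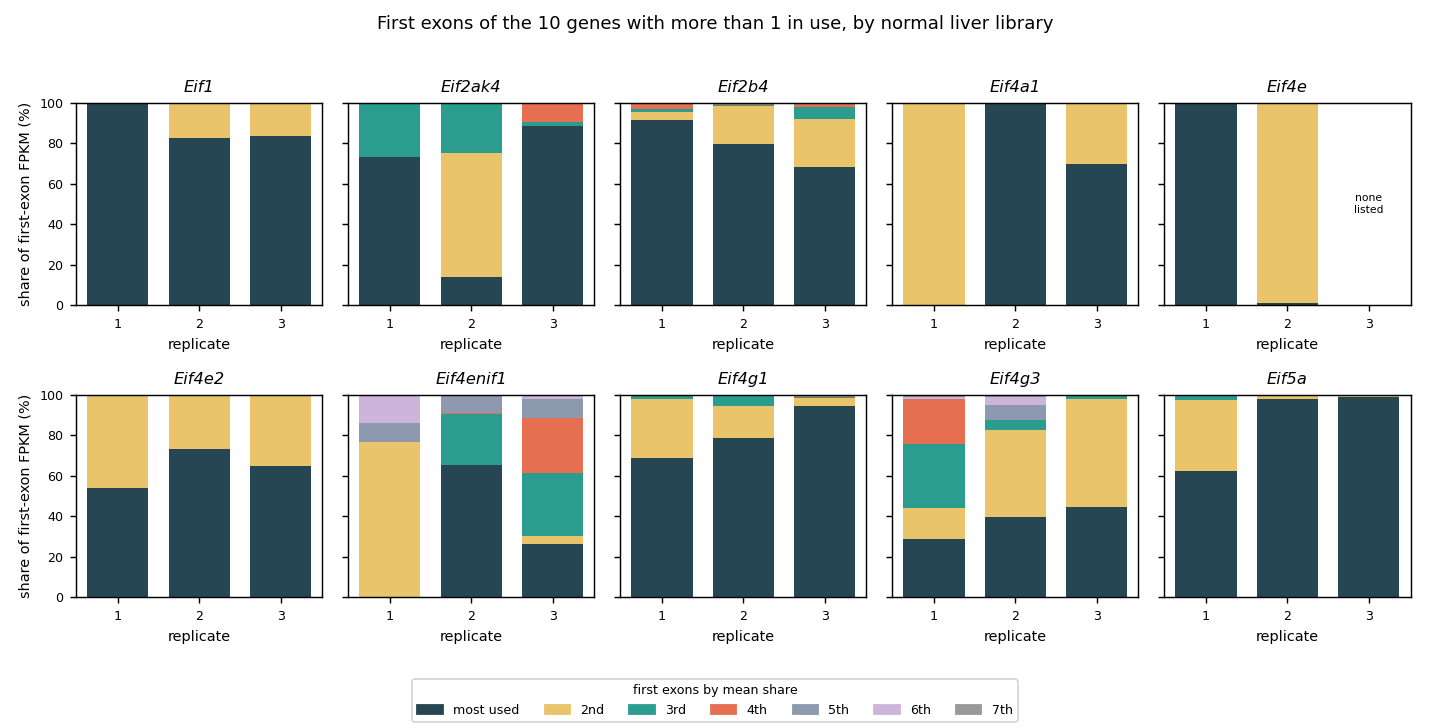
Share of first-exon FPKM (percent) taken by each first exon in the 3 normal liver libraries, for the 10 genes with more than 1 first exon in use; colours run by mean share within each gene. In Eif2ak4, Eif4a1, Eif4e, Eif4enif1 and Eif4g3 the leading first exon is not the same in every library, and Eif4e has no listed first exon in replicate 3.

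Eif4e2 used both of its first exons in every library. Its first exon at chr1:87213939-87214495 (GRCm38, plus strand) carried 8.40, 14.2 and 12.1 FPKM. Its other first exon, at chr1:87213914-87214019, carried 7.23, 5.24 and 6.64 FPKM. The first of these took 53.8%, 73.1% and 64.6% of the total, and both are annotated first exons of protein-coding transcripts that begin 25 bases apart and splice at different sites.

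In Eif4g1 the leading first exon at chr16:20672723-20672876 (plus strand) carried 27.4, 37.0 and 62.8 FPKM, and a second at chr16:20673398-20673655 carried 11.8, 7.36 and 2.72 FPKM. The second took 29.4% in replicate 1 and 4.08% in replicate 3, a share smaller where the gene level was higher over these 3 libraries. Both lie before the coding sequence, 675 bases apart. In Eif5a a longer form of the first exon, chr11:69920801-69921386 (minus strand), carried 64.0 FPKM in replicate 1 and 2.95 and 1.62 FPKM in replicates 2 and 3. The usual form, chr11:69921163-69921386, which starts at the same base, carried 114, 154 and 156 FPKM. The longer form was thus frequent in 1 library of 3.

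Eif1 had a first exon inside the gene, chr11:100320518-100320829 (plus strand), 633 bases downstream of the usual start, at 0.119, 26.5 and 22.8 FPKM. The usual first exon carried 169, 129 and 122 FPKM. In Eif4a1 the usual first exon was not listed in replicate 1 and carried 78.4 and 39.4 FPKM in replicates 2 and 3. A first exon known from retained-intron transcripts carried 24.8, 0.0361 and 17.1 FPKM. In replicate 1 the listed first exons of Eif4a1 reached only 22.1% of the gene value, so its shares there describe a minor part of the transcripts.

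Eif4enif1 had 6 first exons. The start at chr11:3202392-3202556 (plus strand) was not listed in replicate 1 and carried 3.92 and 1.57 FPKM in replicates 2 and 3. A start 25421 bases downstream, whose exon holds coding bases in its annotated transcripts, carried 6.64, 0.0225 and 0.229 FPKM. Replicate 1 thus took 76.8% of its first-exon level from a start that was rare in the other libraries. In Eif4e the whole first-exon level of replicate 1 came from chr3:138526421-138527314 (5.50 FPKM), and 99.03% of that of replicate 2 came from chr3:138526066-138526294 (6.25 FPKM), so its shares rest on 2 libraries.

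The remaining 3 genes had low first-exon levels or a minor second start. Eif2b4 used its start at chr5:31192993-31193430 (minus strand) for 91.6%, 79.8% and 68.1%, with most of the rest from a start 416 bases downstream. Eif4g3 carried 0.661, 0.734 and 2.55 FPKM on its annotated upstream first exon and 0.350, 0.788 and 3.07 FPKM on one 158665 bases downstream. Inside the gene, a first exon at chr4:138201589-138202002 led in replicate 1 with 0.729 FPKM. A further first exon under the identifier of Eif4g3, chr4:137989930-137989960, lies before the gene and is left out of the shares. That exon carried 0.876 FPKM, in replicate 1 only. Eif2ak4 had first-exon levels of 0.554, 0.912 and 1.52 FPKM in all, against gene values of 3.997, 2.48 and 1.52 FPKM, so its shares rest on little signal.

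The start regions of Eif4g1, Eif5a and Eif4e are shown as 3 examples in which the use of first exons differed between libraries and the window holds the letters CACGTG, the E-box bound by MYC and USF factors, given in capitals. The sequences are RefSeq promoter windows of GRCm38.p6, from 250 bases before to 50 bases after an annotated start, for chr16:20672477-20672776 (plus strand), chr11:69921337-69921636 (minus strand) and chr3:138527018-138527317 (plus strand).
Eif4g1: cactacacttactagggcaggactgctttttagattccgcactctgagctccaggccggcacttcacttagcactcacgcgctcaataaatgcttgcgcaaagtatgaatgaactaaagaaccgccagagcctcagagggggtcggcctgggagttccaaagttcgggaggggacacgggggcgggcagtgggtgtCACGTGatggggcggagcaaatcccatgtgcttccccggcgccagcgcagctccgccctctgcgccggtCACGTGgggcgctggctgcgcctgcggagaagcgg
Eif5a: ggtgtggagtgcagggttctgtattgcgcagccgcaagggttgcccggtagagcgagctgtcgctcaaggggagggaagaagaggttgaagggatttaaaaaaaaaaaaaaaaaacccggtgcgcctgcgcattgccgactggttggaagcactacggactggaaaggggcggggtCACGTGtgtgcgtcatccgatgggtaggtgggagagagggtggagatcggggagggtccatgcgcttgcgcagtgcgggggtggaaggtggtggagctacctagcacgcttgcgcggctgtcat
Eif4e: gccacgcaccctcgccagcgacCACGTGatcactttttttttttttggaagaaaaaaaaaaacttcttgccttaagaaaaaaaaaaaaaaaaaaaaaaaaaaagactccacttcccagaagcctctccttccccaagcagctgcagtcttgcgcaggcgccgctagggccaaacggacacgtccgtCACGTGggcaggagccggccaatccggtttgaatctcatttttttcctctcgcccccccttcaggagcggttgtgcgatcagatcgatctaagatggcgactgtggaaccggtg

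In Eif4g1 the E-box letters begin 54 bases before the annotated start and again 15 bases after it, and that start lies 4 bases from the leading first exon listed here. In Eif5a they begin 74 bases before the start, which is the same base as the start listed in all 3 libraries. In Eif4e they begin 64 and 228 bases before an annotated start that lies 847 bases downstream of the nearest listed first-exon start, so both copies lie inside the first exon listed in replicate 1. The other Eif4e window, whose start lies 125 bases from a listed one, holds no CACGTG. RefSeq windows were found for 40 of the 51 genes, 53 windows in all, and windows of 1 gene can overlap. The letters CACGTG, which read the same on both strands, were in 12 of the 53 windows (22.6%), in 10 genes. The Eif5a copy shown lies in another, overlapping Eif5a window too, a further Eif5a window holds a different copy, and the remaining Eif5a windows hold none. Eif5a2, which had no listed event, is 1 of the 10 genes. Of all 32851 windows 7.15% held them, and of the 9068 windows of genes that averaged 1 FPKM or more here 10.3% did.

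Other letters were searched on both strands. CCGGAAG, a core bound by ETS factors, was in 34.0% of the initiation factor windows, against 18.5% for genes of at least 1 FPKM and 8.86% of all windows. GGGCGG, the GC box, was in 69.8%, against 63.0% and 35.7%. TATAAA was in 5.66%, against 7.38% and 13.6%. These shares are a description of the letters and say nothing of binding.

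Inside the genes, 67 skipped exons and retained introns were listed in 27 initiation factor genes. Both forms were listed in every library for 8 of them, and in 3 of these 8 the rarer form carried at least 10% on average (37.5%). Over all protein-coding genes the same was true of 56.9% of 2167 events. The 3 events were exons of Eif4h, Eif4enif1 and Eif4g1. Of the 46 skipped-exon events, 27 had the exon included at over 90% on average, and of the 21 intron events, 14 were retained at under 1%.

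Among these 3 exons that of Eif4h differed most between libraries. Its 60-base exon at chr5:134624441-134624500 (minus strand) was included at 14.8, 17.0 and 1.25 FPKM and skipped at 10.1, 1.02 and 13.4 FPKM. Inclusion was 59.3%, 94.4% and 8.51%, so the libraries had no common majority form. The exon is coding and adds 20 codons without shifting the frame, as in the longer isoform of eIF4H. Eif4enif1 had a 72-base coding exon at chr11:3233988-3234059 (plus strand), included at 0.722, 0.230 and 2.34 FPKM and skipped at 6.52, 5.59 and 3.19 FPKM. Inclusion was 9.97%, 3.95% and 42.3%, with replicate 3 highest, and the exon holds 24 whole codons. Without replicate 3 it no longer reaches the 10% limit. Both exons are shown from the GENCODE transcripts of GRCm38, with the skipped exon in capitals and 15 bases of each neighbouring exon in lower case, because these are the coding stretches that the counted skips add or remove.
Eif4h: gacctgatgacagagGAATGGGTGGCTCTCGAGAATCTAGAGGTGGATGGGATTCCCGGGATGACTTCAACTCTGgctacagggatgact
Eif4enif1: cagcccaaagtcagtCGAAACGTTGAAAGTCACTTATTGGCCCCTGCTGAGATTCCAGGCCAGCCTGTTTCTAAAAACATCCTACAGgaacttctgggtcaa

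The third event, in Eif4g1, was a 57-base exon at chr16:20673599-20673655 (plus strand) that lies before the coding sequence. It was included at 26.1, 29.3 and 50.2 FPKM and skipped at 1.28, 7.67 and 12.5 FPKM. Inclusion was 95.3%, 79.2% and 80.02%, high in every library. Its bases are also the last part of the second Eif4g1 first exon described above.

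Eif4a2, found by position, had an exon of 107 bases at chr16:23112351-23112457 (plus strand) in an annotated transcript marked for nonsense-mediated decay. It was included at 10.5, 14.2 and 0.00469 FPKM and skipped at 60.1, 56.2 and 65.8 FPKM. Inclusion of this form against skipping was 14.8%, 20.2% and 0.00713%, so the 107-base form was close to absent from replicate 3 alone. A longer form of 111 bases, which starts at the same base and holds all 107, was included at 6.58, 10.8 and 6.37 FPKM. Against skipping it took 9.87%, 16.2% and 8.84%, so the shared bases, with the stop given next, were not absent from replicate 3. The reading frame meets a stop codon at base 8 of the exon, and its first bases up to that stop, with the stop in capitals, are gagtcgaTAG.

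Of 11 pairs of alternative exon ends in these genes, 3 had both forms at 10% or more on average and 8 did not. The share over all protein-coding genes was not taken for exon ends, so whether this count is high or low is unknown. In Eif5 an exon that holds the start of the coding sequence was listed in a long form, chr12:111539408-111539687 (plus strand), at 40.4, 17.2 and 3.88 FPKM. The short form, chr12:111539547-111539687, lacks 139 bases before the start codon and carried 0, 41.5 and 48.4 FPKM. The long form took 100%, 29.3% and 7.42%, so replicate 1 held only the long form, and the gene level did not follow this order. In Eif4g3 an exon end that differs by 57 bases had the long form at 89.3%, 44.3% and 45.3%. In Eif2b4 a difference of 145 bases had the long form at 16.5%, 29.7% and 23.4%, a range narrower than in Eif5 and Eif4g3.

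**Figure D4:**
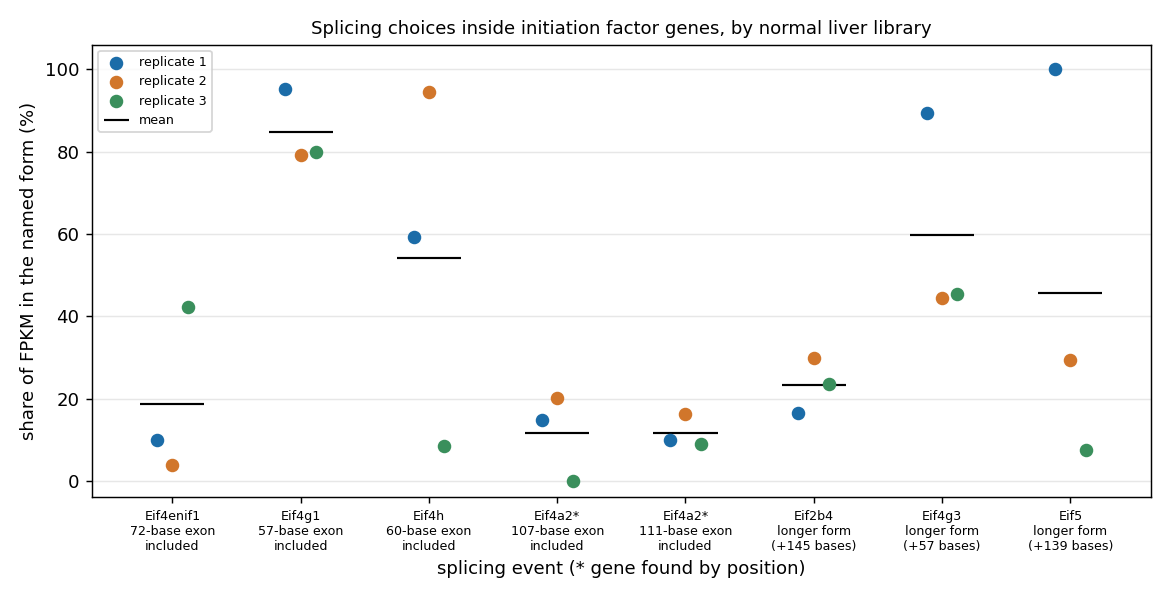
Share of FPKM (percent) in the included or longer form in each of the 3 normal liver libraries, with a line at the mean, for 8 splicing events; an asterisk marks Eif4a2, found by position. The Eif4h exon runs from 8.51% to 94.4% and the longer Eif5 exon from 7.42% to 100%, whereas the Eif4g1 exon stays between 79.2% and 95.3%.

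The listed last exons were more uniform, but in some genes they hold a small part of the gene value. In Eif5, Eif4enif1 and Eif2ak3 they reached at most 5.79% of it in any library, and in Eif4e2 at most 24.1%. Those of Eif4a2 and Eif4g2, found by position, averaged only 0.158 and 0.176 FPKM. Most of the level of these genes thus has no listed last exon, and their ends are not described by the count. Only Eif2d, of 40 genes with a listed last exon (2.50%), had a second last exon at 10% or more on average, against 7.20% of 9648 protein-coding genes. Its main last exon at chr1:131173304-131173478 (plus strand) carried 4.17, 12.4 and 12.9 FPKM. A last exon 1239 bases upstream carried 3.22, 1.26 and 0 FPKM, and one 1374 bases downstream, from a transcript marked for nonsense-mediated decay, was listed at 2.86 FPKM in replicate 1 only. The main last exon thus took 38.6% in replicate 1, against 89.3% and 98.2% in replicates 2 and 3, and without replicate 1 Eif2d no longer passes.

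Genes that act beside the initiation factors were listed by role for the same libraries. Of 40 such genes, 35 were listed under their own identifier and 34 averaged 1 FPKM or more. Their median was 3.89 on the log2(FPKM + 1) scale, close to the members' 4.14. By role the elongation factors had the highest median, 43.7 FPKM over the 6 listed of 8. Eef1a1, which delivers aminoacyl-tRNA, had 1588, 1493 and 2009 FPKM, and Eef2, the translocase, had 265, 282 and 285 FPKM. Lower in this group were Eef1e1 and Eef2k, which averaged 6.00 and 1.87 FPKM. Pabpc1, the poly(A)-binding protein that meets eIF4G, had 56.9, 70.2 and 69.1 FPKM, above Eif4g1 in every library. Mtor, whose complex controls the eIF4E-binding proteins, had 5.65, 8.77 and 6.70 FPKM, and Pdcd4, an inhibitor of eIF4A, had 25.6, 28.4 and 28.8 FPKM.

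The 9 genes taken for the integrated stress response, the programme that eIF2 phosphorylation starts, spread widely. Atf5 had 121, 96.4 and 108 FPKM and Atf4 had 58.3, 46.3 and 46.1 FPKM. Ddit3, the CHOP gene, had 2.48, 1.85 and 3.34 FPKM, and Ppp1r15a, a subunit of the eIF2 alpha phosphatase, had 6.47, 2.77 and 0.890 FPKM. Asns, an amino acid synthesis gene, was listed at 0, 0 and 0.0599 FPKM, and Gcn1, the partner of GCN2, had no event. The transcript levels say nothing of phosphorylation or of translation itself, which were not measured.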

How the data were processed

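Each of the 3 libraries came as a deposited table of transcript events (transcript ends and internal splicing choices), and its FPKM column holds the authors' values, per the file headers. HISAT2 2.0.1, HTSeq 0.6.1, cutadapt 1.9.1, DESeq2 and the build mm9 appear without roles in the submitters' processing notes; which program wrote the event tables is not given there. Per the labels' protocols, libraries came from total RNA by poly(A) selection or rRNA removal, without saying which. Positions matched GRCm38: 82.0% to 82.7% of first exons were annotated exactly in GENCODE M21, and under 0.01% after a shift of 1000 bases. Identical repeated lines (1440 to 1519 a library) were removed. A gene's value was the largest of its summed first exons, summed last exons and any internal event, so a value can rest on a part of the transcripts. An event counted for a gene when it carried the gene's identifier and lay inside it on its strand. A form not listed in a library was taken as 0. Shares are of summed FPKM; logs use log2(FPKM + 1). Depth is unknown, so no interval is given. Named genes were the 10 highest, 5 lowest and 5 most variable, those with more than 1 form in use, and the role groups of up to 3 genes; members, lists and rules were chosen with earlier results of these data known. Scripts (Python 3.11.15, pandas 2.3.3, numpy 2.4.6, matplotlib 3.10.9) were tested on simulated tables.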

Additional observations from a re-analysis of the deposited data

Results flagged for a closer look

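Signals outside the values used above were listed beside 3 members other than Eif4g3, whose outside first exon is given above. Under the identifier of Eif4ebp3, a first exon that lies inside the neighbouring gene Ankhd1 reached 8.98 FPKM in its highest library, above the 1.38 to 2.38 FPKM of Eif4ebp3 itself. Under the identifier of Eif4e3, a first exon inside Foxp1 reached 2.58 FPKM in its highest library and was not listed in replicate 1. Inside Eif1a, a first exon with no identifier was listed at 0.532 FPKM, in replicate 2 only. The control level of such events was not measured, since all libraries are of 1 group.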

How the results depend on the processing

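No paired analysis was possible because all 3 libraries belong to 1 group. The count of genes averaging 1 FPKM or more stayed within 1.5 times of 46 under all 9 alternatives, from 37 genes (last exons only) to 48 (members by position). The median level was 4.14 and moved by more than its SD between libraries (0.07) with first exons only (4.01), last exons only (3.999) and a pseudocount of 0.1 (4.06); leaving out a library gave 4.11 to 4.15. The 10 genes with more than 1 first exon in use became 6 at a share of 20%, and 6 when the first exons had to reach 80% of the gene value in every library; leaving out a library gave 7 to 9. The 1 gene with more than 1 last exon became 4 at 5%, 0 at 20% and 2 by position; leaving out a library gave 1 to 2, and without replicate 1 that gene is Eif5, on last exons that sum to 0.331 and 0.360 FPKM. The 3 internal events became 5 at 5%, 1 at 20% and 5 by position, and leaving out a library gave 3 to 4. Without replicate 3 the 3 events were in Eif4g1, Eif4h and Eif5a, so the Eif4enif1 exon no longer passed. The 80% limit, and position for these event counts, were chosen after seeing the data. Among the 44 genes with a listed first exon, values fell by over 1.5-fold for 4 with first exons only (Eif2ak4, Eif3c, Eif4a1, Eif4e). Among the 40 with a listed last exon, they did so for 4 with last exons only (Eif2ak3, Eif4e2, Eif4enif1, Eif5). Eif4ebp2 and Eif2b5 had no listed first exon. Eif1a, Eif2b3, Eif2s2, Eif3i, Eif4ebp3 and Eif4g3 had no listed last exon, so such genes have no value of that kind. The cause was not tested. Depth is unknown, so low values carry no interval.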
